A study of Mus musculus with 4 samples.

Results

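The genes of glycolysis and lactate transport were compared between lens epithelia of UVB-irradiated eyes and of control eyes of mice. The set held 33 genes, picked by symbol for their roles in glucose uptake, the steps of glycolysis, lactate production and export, and the entry of pyruvate into mitochondria. Each gene was given by the probe set that carries its symbol alone and has the highest mean signal over the arrays. Such a probe set was found for 28 of the 33, out of 19938 genes of the whole array. Gapdh, the glyceraldehyde phosphate dehydrogenase, was covered only by 25 probe sets that it shares with other symbols. The signals of Gpi1, Pfkfb1, Eno1 and Sord were not analysed here. The right eyes of male C57BL/6 mice aged 8 weeks received UVB at 30 mJ/cm2, their left eyes stayed under foil as the controls, and lens epithelia were taken 24 h later. There were 2 independent experiments, each with 1 array of UVB-irradiated and 1 array of control epithelium. The methods give 3 mice per experiment, and do not say if their RNA was pooled on an array.

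Glycolysis splits glucose into pyruvate in the cytosol and yields ATP without oxygen. Phosphofructokinase is its main point of control, and the bifunctional enzymes of the Pfkfb family set the level of fructose 2,6-bisphosphate, its strongest activator. Lactate dehydrogenase turns pyruvate into lactate, monocarboxylate transporters move lactate across the plasma membrane, and pyruvate dehydrogenase sends pyruvate to the mitochondria instead. The lens has no blood vessels and lives at low oxygen, and most of its ATP comes from glycolysis. Photoreceptors also run glycolysis at a high rate and release lactate, which the retinal pigment epithelium takes up.

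The values are log2 signals as normalized by the authors, so that a difference of 1 is a doubling. In 100% of the 28944 probe sets, the UVB-irradiated and control values of experiment 1 added up to the same sum as those of experiment 2, within 0.02. The experiments had therefore been put on the same mean before deposit, by a step that the sources used here do not give. As a result, a gene whose difference had 1 sign in both experiments is also a gene whose groups did not overlap. Differences were tested in limma with a block for the experiment, so that the right and left eyes are paired and 1 residual degree of freedom is left. The smallest two-sided p of an exact permutation test of a single gene is 0.5 with the 2 pairs kept and 0.333 without pairing. The 8 lens epithelium markers all lay above the array median in both controls, and their summed signal in UVB-irradiated epithelia was 0.961 times that of controls in experiment 1 and 1.0 times in experiment 2. Markers of several, but not all, other cell types moved with the condition, although the methods state that retina and other tissues were dissected away from the lens. All 26 photoreceptor markers and all 9 markers of the retinal pigment epithelium were higher after UVB in both experiments. The photoreceptor list holds Crx, and the pigment epithelium list holds Otx2 (log2 fold change 0.91). The paper reports more Otx2 in lens epithelial cells after UVB, by staining as well. Its authors believe that the rise of retina-related genes was due to Otx2, and point to their dissection. They also report, without showing the data, a considerable overlap with genes raised by Otx2 overexpression in a human lens epithelial cell line. Which cells gave these signals was not tested here. Summed photoreceptor signal was 18474 and 22223 in UVB-irradiated epithelia, against 12081 and 10146 in controls, and summed pigment epithelium signal was 6041 and 5587 in UVB-irradiated epithelia, against 2294 and 2491 in controls. Also higher in both experiments were 7 of 8 melanin synthesis genes, 8 of 9 markers of inner retinal neurons, 5 of 8 of Müller glia and 6 of 7 of leukocytes, whose summed signal in UVB-irradiated epithelia was 1.232 and 1.42 times that of controls. Beside these counts, 22.6% of all genes were higher and 39.5% lower in both experiments. Of 7 cornea and conjunctiva markers, 1 was higher and 3 lower, and of 6 blood vessel markers, 2 were higher and 4 lower. Ciliary body and iris had 5 higher and 2 lower of 7. Red blood cell had 1 and 1 of 2, and lens fiber 5 and 6 of 12. Of the photoreceptor markers, 17 of 26 lay above the array median in both controls as well. In such bulk tissue, a changed number of cells of a type cannot be told apart from a changed amount of RNA per cell.

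Most of the 28 genes were slightly lower after UVB, and a few isozymes and carriers were higher. The median of the 28 log2 fold changes was −0.055, with medians of −0.07 and −0.04 in experiments 1 and 2, beside −0.025 for all genes (−0.02 and −0.03). In both experiments, 16 genes (57.1%) were lower, beside 39.5% of all genes, and 6 genes (21.4%) were higher, beside 22.6% of all genes. The other 6 were not of 1 sign. In both controls, 24 of the 28 lay above the array median and 20 above the 75th percentile. The shares over all genes were not matched for signal. The 75th percentile was 8.82 and 8.83 on the UVB-irradiated arrays, against 8.85 and 8.84 on the controls. The array medians were 7.22 and 7.21, against 7.19 and 7.2. When all arrays were scaled to 1 common 75th percentile, 12 genes were lower and 8 higher. In 12 genes the difference stayed within 0.1 of 0 in both experiments. An unadjusted p under 0.05 in limma with the block was reached by 5 higher genes, where the share over all genes was 5.14%, and by 5 lower genes, where it was 8.03%. The higher ones were Slc16a1, Eno2, Ldhb, Pfkfb2 and Pdk4, and the lower ones were Slc16a3, Pfkl, Pdk1, Pfkm and Pfkp. After Benjamini-Hochberg adjustment over all probe sets, 0 genes had a p under 0.05, among the 28 and over all genes (0%), and limma's lowest adjusted p was 0.357. All 10 genes just named had that adjusted p. None of the 28 passed the fold of 1.8 and unadjusted p of 0.01 that the methods use, which 0.0802% of all genes did. Without the block, limma gave an adjusted p under 0.05 to 4 higher genes, beside 6.19% of all genes, and to 7 lower genes, beside 12% of all genes, but that fit counts 2 residual degrees of freedom where the equal means leave 1.

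**Figure D1:**
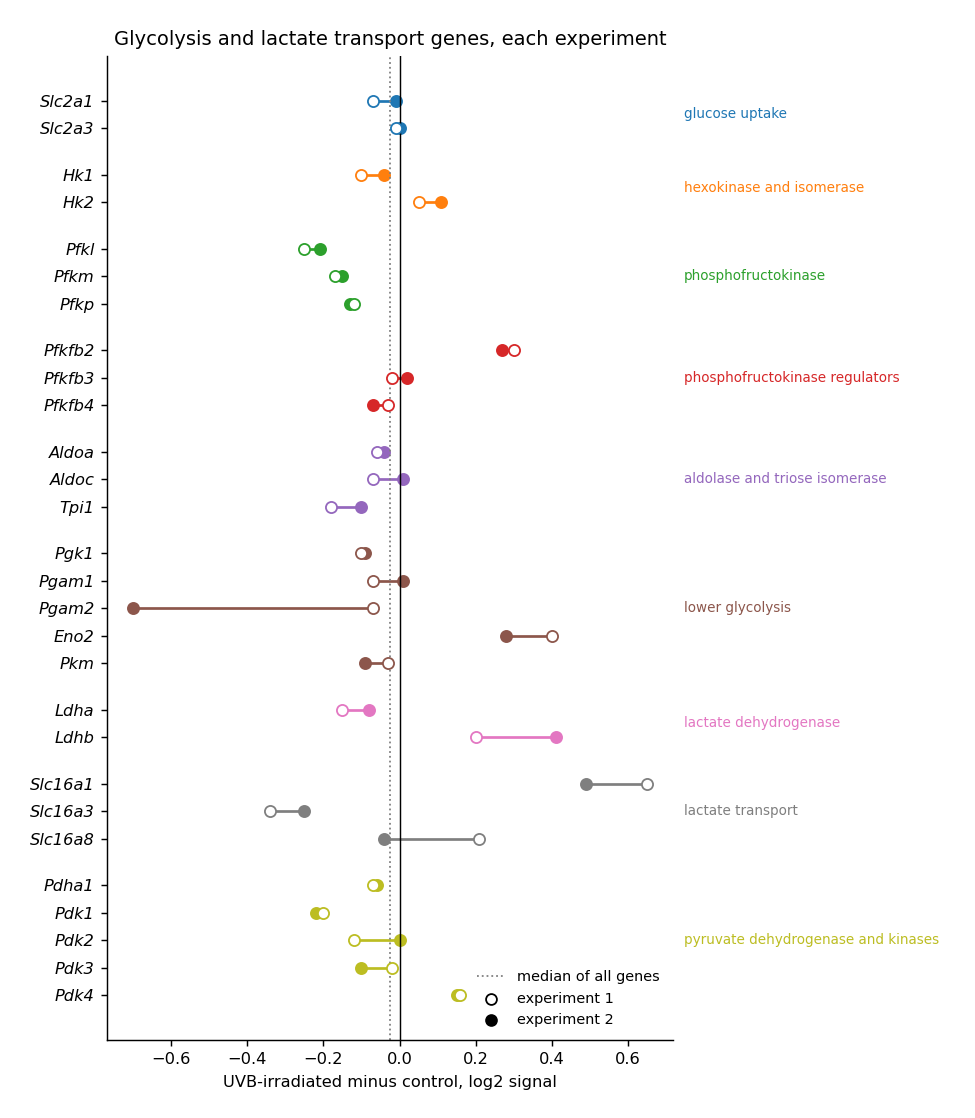
UVB-irradiated minus control log2 signal of the 28 genes, grouped by role. Open circles are experiment 1 and filled circles experiment 2, joined by a line, and the dotted line is the median of all genes at −0.025. Of the genes shown, 6 lie right of 0 in both experiments and 16 left of 0.

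Stretches of 250 bases before the start of transcription are shown for the lactate carriers Slc16a1 and Slc16a3, whose differences ran in opposite directions, and for Eno2 and Pfkl, which also differed in direction. They come from RefSeq on GRCm38.p6 and are written along the gene's own strand. They were searched on both strands for ACGTG and GCGTG, the core of the element that hypoxia-inducible factors bind, since many glycolytic genes are known targets of these factors. Capitals mark the matches.
Slc16a1: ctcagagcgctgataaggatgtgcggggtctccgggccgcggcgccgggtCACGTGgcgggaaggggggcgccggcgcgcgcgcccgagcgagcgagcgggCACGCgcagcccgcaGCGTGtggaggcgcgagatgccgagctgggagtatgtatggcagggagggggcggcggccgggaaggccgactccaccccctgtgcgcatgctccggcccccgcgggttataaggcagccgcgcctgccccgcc
Slc16a3: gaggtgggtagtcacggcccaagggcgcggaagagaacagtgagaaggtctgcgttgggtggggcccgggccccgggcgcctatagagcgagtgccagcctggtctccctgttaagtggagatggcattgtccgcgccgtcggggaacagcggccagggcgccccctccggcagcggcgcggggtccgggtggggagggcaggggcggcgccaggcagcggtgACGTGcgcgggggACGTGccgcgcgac
Eno2: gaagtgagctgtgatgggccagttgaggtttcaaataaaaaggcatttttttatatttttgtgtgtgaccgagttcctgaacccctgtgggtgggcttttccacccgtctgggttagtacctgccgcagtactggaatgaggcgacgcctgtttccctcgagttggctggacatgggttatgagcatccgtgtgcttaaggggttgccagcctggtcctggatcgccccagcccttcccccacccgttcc
Pfkl: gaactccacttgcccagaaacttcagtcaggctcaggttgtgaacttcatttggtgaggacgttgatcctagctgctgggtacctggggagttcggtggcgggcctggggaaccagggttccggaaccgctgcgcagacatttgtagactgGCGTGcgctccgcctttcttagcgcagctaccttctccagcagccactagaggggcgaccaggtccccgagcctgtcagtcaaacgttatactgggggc
The Slc16a1 stretch lies at chr3:104638414-104638663 on the plus strand and holds 4 matches, of which a palindrome counts once on each strand, so that these overlap. The Slc16a3 stretch lies at chr11:120948817-120949066 on the plus strand and holds 2 matches. The Eno2 stretch lies at chr6:124769674-124769923 on the minus strand and holds 0 matches, and the Pfkl stretch at chr10:78009808-78010057 on the minus strand holds 1. Promoter stretches were at hand for 32 genes of the set, all but Slc2a3, whether or not they held a match. These 32 include Gapdh, Gpi1, Pfkfb1, Eno1 and Sord, which are not among the 28 genes compared. At least 1 match was found in 36 of 51 promoters (70.6%) of these 32 genes, beside 12679 of 32851 promoters (38.6%) of 27025 genes in all. Genes with several promoters count several times, and some of their stretches, as in Eno1, overlap and share sites. The share was 7 of 8 promoters (87.5%) for the 6 genes higher in both experiments and 18 of 25 (72.0%) for the 16 lower ones, so the letters were found on both sides. A match is only a run of letters, and the base composition of the promoters was not compared.

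Glucose enters cells through facilitative carriers and is then trapped by hexokinase. Slc2a1, the carrier GLUT1, had a log2 signal of 13.09 and 13.12 in UVB-irradiated and 13.16 and 13.13 in control epithelia. Slc2a3, the high-affinity carrier GLUT3, had 6.75 and 6.76 in UVB-irradiated and 6.76 and 6.76 in control epithelia. The difference of Slc2a1 was −0.07 in experiment 1 and −0.01 in experiment 2, and in the same order Slc2a3 had −0.01 and 0, so both stayed within 0.1 of 0. Hk2, the inducible muscle-type hexokinase, had differences of 0.05 and 0.11 (limma's unadjusted p = 0.133).

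Hk1, the hexokinase of most tissues, gave opposite readings on its 2 own probe sets. The brighter one, which the rule takes, had 12.73 and 12.76 in UVB-irradiated and 12.83 and 12.80 in control epithelia, a log2 fold change of −0.07 (limma's unadjusted p = 0.165). The other one, which the annotation ties to RefSeq mRNAs of Hk1, had 9.61 and 9.61 in UVB-irradiated and 9.35 and 9.34 in control epithelia. Its log2 fold change was 0.265 (standard error 0.0275), with an unadjusted p of 0.00796 in limma. The brighter probe set is tied to an mRNA entry outside RefSeq, and another 16 probe sets list Hk1 together with other symbols. Those had signals between 11.58 and 12.96 and differences between −0.10 and 0.09. The direction of Hk1 thus depended on the probe set, and its second probe set was examined after its values had been seen.

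All 3 phosphofructokinase subunits, which catalyse the committed step, were lower in UVB-irradiated epithelia. Pfkl, the liver-type subunit, had 10.14 and 10.16 in UVB-irradiated epithelia, against 10.39 and 10.37 in controls. Its log2 fold change was −0.23 (standard error 0.0305), or 1.17-fold lower, with limma's unadjusted p = 0.0134. Pfkm, the muscle-type subunit, had 8.99 and 9.0 in UVB-irradiated epithelia, against 9.16 and 9.15 in controls. It was 1.12-fold lower (log2 fold change −0.16, standard error 0.0281, limma's unadjusted p = 0.0242). Pfkp, the platelet-type subunit, had 9.87 and 9.86 in UVB-irradiated epithelia, against 9.99 in both controls. It was 1.09-fold lower (log2 fold change −0.125, standard error 0.0275, limma's unadjusted p = 0.0384).

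The regulators of phosphofructokinase did not move as 1 group. Pfkfb2, the heart-type bifunctional enzyme, had 9.03 and 9.01 in UVB-irradiated epithelia, against 8.73 and 8.74 in controls. It was 1.22-fold higher (log2 fold change 0.285, standard error 0.0291, limma's unadjusted p = 0.00770). Pfkfb3, the isoform with the highest kinase activity, had differences of −0.02 and 0.02, and Pfkfb4 had differences of −0.03 and −0.07. The log2 ratio of Pfkfb2 over Pfkfb3, chosen after the values were seen, was higher after UVB by 0.32 in experiment 1 and 0.25 in experiment 2.

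The enzymes of the middle of the pathway were bright on the arrays and differed little. Aldoa, the ubiquitous aldolase, had differences of −0.06 and −0.04, and Aldoc, the brain-type aldolase, −0.07 and 0.01. Tpi1, which interconverts the triose phosphates, had 11.80 and 11.84 in UVB-irradiated epithelia, against 11.98 and 11.94 in controls, with a log2 fold change of −0.14 that missed the threshold (limma's unadjusted p = 0.0596). The probe sets that Gapdh shares with other symbols had signals between 13.25 and 13.67 and differences between −0.02 and 0.03. Pgk1, which makes the first ATP of the pathway, had differences of −0.10 and −0.09 (limma's unadjusted p = 0.0660), and 2 of its 3 probe sets held identical values. Pgam1, the ubiquitous phosphoglycerate mutase, had differences of −0.07 and 0.01.

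Among the later steps, the muscle-type mutase and the neuronal enolase stood apart. Pgam2, the muscle-type mutase, had 9.78 and 9.46 in UVB-irradiated epithelia, against 9.85 and 10.16 in controls. Its difference was −0.07 in experiment 1 and −0.70 in experiment 2, so its log2 fold change of −0.385 (standard error 0.215, limma's unadjusted p = 0.205) rested on experiment 2. Eno2, the gamma enolase of neurons and neuroendocrine cells, had 8.47 and 8.41 in UVB-irradiated epithelia, against 8.07 and 8.13 in controls. It was 1.27-fold higher (log2 fold change 0.34, standard error 0.0490, limma's unadjusted p = 0.0160). The 9 markers of inner retinal neurons had a median log2 fold change of 0.205. Their part and that of the photoreceptor markers in the Eno2 value was not tested. Pkm, the pyruvate kinase that closes the pathway, had differences of −0.03 and −0.09.

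**Figure D2:**
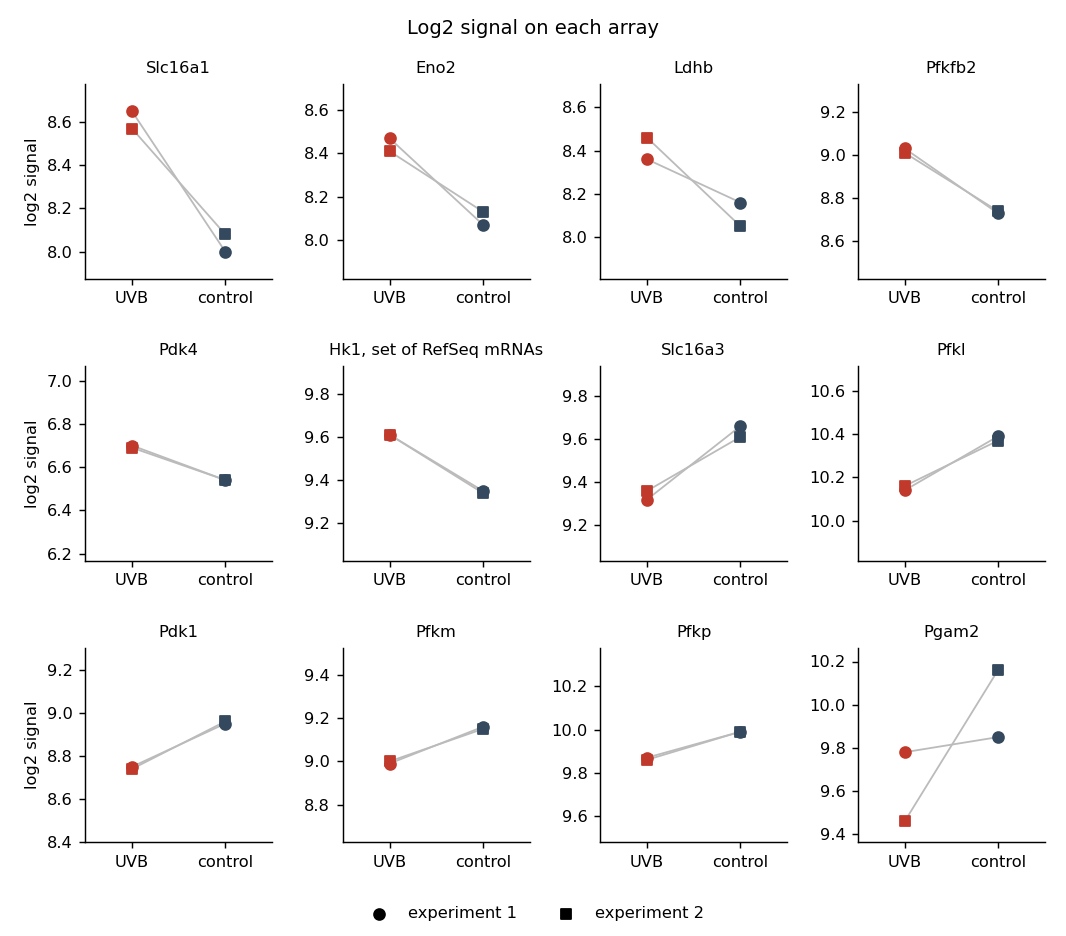
Log2 signal on each array for the 11 genes with an unadjusted p under 0.05 or among the 5 largest differences per direction, and for the second probe set of Hk1. Circles are experiment 1 and squares experiment 2, lines join the eyes of an experiment, and each panel spans the same range. The groups are apart in every panel, which follows from the equal sums, since each probe set shown had 1 sign in both experiments. In Pgam2 the gap is mainly in experiment 2.

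The differences of the 2 lactate dehydrogenase subunits had opposite signs. Ldhb, the heart-type subunit, had 8.36 and 8.46 in UVB-irradiated epithelia, against 8.16 and 8.05 in controls. It was 1.24-fold higher (log2 fold change 0.305, standard error 0.0762, limma's unadjusted p = 0.0494), by 0.20 in experiment 1 and 0.41 in experiment 2. A second Ldhb probe set had 7.83 and 7.80 in UVB-irradiated epithelia, against 7.67 and 7.70 in controls, with differences of 0.16 and 0.10 (limma's unadjusted p = 0.0542). Ldha, the muscle-type subunit, had 12.50 and 12.54 in UVB-irradiated epithelia, against 12.65 and 12.62 in controls, a log2 fold change of −0.115 that missed the threshold (limma's unadjusted p = 0.0771). The log2 ratio of Ldhb over Ldha, on the brighter Ldhb probe set alone, was higher after UVB by 0.35 in experiment 1 and by 0.49 in experiment 2.

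Among the genes with an unadjusted p under 0.05, the lactate carriers had the widest difference in each direction. Slc16a1, the widely expressed monocarboxylate transporter MCT1, had 8.65 and 8.57 in UVB-irradiated epithelia, against 8.0 and 8.08 in controls. It was 1.485-fold higher (log2 fold change 0.57, standard error 0.0607, limma's unadjusted p = 0.00840). Slc16a3, the carrier MCT4 of highly glycolytic cells, had 9.32 and 9.36 in UVB-irradiated epithelia, against 9.66 and 9.61 in controls. It was 1.23-fold lower (log2 fold change −0.295, standard error 0.0409, limma's unadjusted p = 0.0147). The log2 ratio of Slc16a1 over Slc16a3 was higher after UVB by 0.99 in experiment 1 and 0.74 in experiment 2, the widest such shift among the 4 ratios computed, all of them chosen after the values were seen. Slc16a8, the carrier MCT3 of the basal face of the retinal pigment epithelium, had 6.98 and 6.85 in UVB-irradiated epithelia, against 6.77 and 6.89 in controls, and its groups overlapped. MCT1 is present in retina and pigment epithelium as well as in lens. The methods state that such tissues were removed, and the part of their markers, given above, in the Slc16a1 value was not tested.

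The kinases that switch off pyruvate dehydrogenase also differed among themselves. Pdk1, a target of hypoxia-inducible factors, had 8.75 and 8.74 in UVB-irradiated epithelia, against 8.95 and 8.96 in controls. It was 1.16-fold lower (log2 fold change −0.21, standard error 0.0281, limma's unadjusted p = 0.0137). Pdk4, the kinase induced by fasting and fatty acids, had 6.70 and 6.69 in UVB-irradiated epithelia, against 6.54 in both controls. It was 1.11-fold higher (log2 fold change 0.155, standard error 0.0275, limma's unadjusted p = 0.0247), at a signal below the array median. Pdk2 had differences of −0.12 and 0, and Pdk3 of −0.02 and −0.10. Pdha1, the catalytic subunit of the dehydrogenase, had differences of −0.07 and −0.06. The log2 ratio of Pdk4 over Pdk1 was higher after UVB by 0.36 in experiment 1 and 0.37 in experiment 2.

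**Figure D3:**
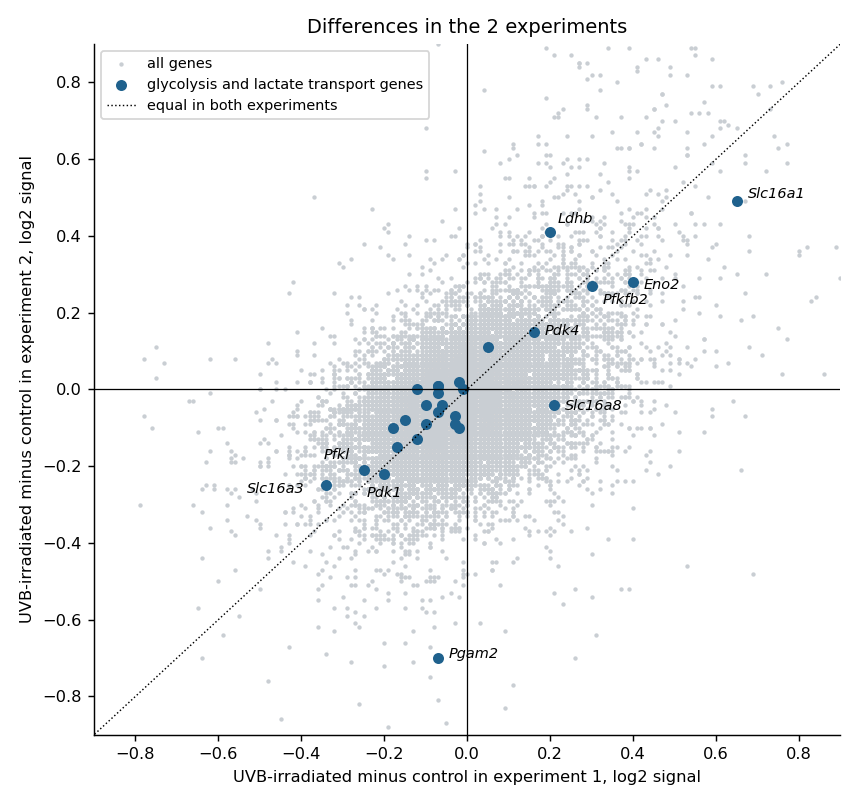
UVB-irradiated minus control log2 signal in experiment 1 (horizontal) and experiment 2 (vertical). Blue points are the 28 genes, grey points all genes, and the dotted line marks equal differences, with 87 genes outside the axes. Most of the 28 lie close to 0, with Slc16a1 at 0.65 and 0.49 and Pgam2 far from the line at −0.07 and −0.70.

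Neighbouring pathways were read from lists of genes, each described by its counts. Of all genes, 22.6% were higher and 39.5% lower in both experiments, and 5.14% were higher and 8.03% lower with an unadjusted p under 0.05. Of 12 measured other glycolytic isozymes, 4 were higher and 5 lower in both experiments, and 3 of the lower ones had an unadjusted p under 0.05 in limma. The widest differences were those of Gapdhs, the sperm isoform (−0.20), and Tigar, a phosphatase of fructose 2,6-bisphosphate (−0.17). On the higher side they were those of Eno4 (0.075) and of Hk3 and Eno3, which tied at 0.05. Gapdhs, Eno4 and Hk3 had mean control signals of 6.18, 6.32 and 6.0, below the array median. Of 8 genes of the pentose phosphate pathway, 0 were higher and 2 lower, Taldo1 (−0.085) and Tkt (−0.08), and 0 had an unadjusted p under 0.05. Of 9 genes of the pyruvate dehydrogenase complex and mitochondrial pyruvate entry, 3 were higher and 2 lower, with Pdp2 at 0.125, Mpc1 at 0.05, Pdhx at −0.18 and Pcx at −0.065. An unadjusted p under 0.05 in limma was reached by 1 of these lower genes. Of 3 measured polyol and fructose genes, 1 was lower, Tkfc (−0.09), and the list's median was −0.075. Of 11 glycogen genes, 8 were lower and 1 higher, with Pgm1 at −0.165, Ugp2 at −0.13 and G6pc3 at 0.04, and 2 of the lower ones had an unadjusted p under 0.05. The medians of these lists lay between −0.075 and −0.01, beside −0.025 for all genes.

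Of 23 other sugar and monocarboxylate carriers, 8 were higher and 9 lower in both experiments, beside 22.6% and 39.5% of all genes, and the share of lower ones was near that of all genes. An unadjusted p under 0.05 in limma was reached by 3 higher and 4 lower carriers, beside 5.14% and 8.03% of all genes. Slc16a6, a carrier of ketone bodies in zebrafish liver, was higher by 0.46 and 0.42 (log2 fold change 0.44, limma's unadjusted p = 0.00333), and Slc16a9, a carnitine carrier in humans, by 0.50 and 0.30 (log2 fold change 0.40, limma's unadjusted p = 0.0262). Slc5a8 and Slc5a1, which are sodium-coupled, had log2 fold changes of −0.22 and −0.185. Mean control signals were 6.01 for Slc5a8, 5.97 for Slc5a1 and 6.84 for Slc16a6, all below the array median. Bsg, the partner that brings MCT1 and MCT4 to the membrane, had a log2 fold change of −0.04, and Emb, a related partner, one of −0.02.

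Of 24 factors and targets of the hypoxia pathway outside glycolysis, 15 were lower and 2 higher in both experiments, beside 39.5% and 22.6% of all genes. The median of their log2 fold changes was −0.07. An unadjusted p under 0.05 was reached by 4 lower genes and 1 higher gene, beside 8.03% and 5.14% of all genes. Car9, a carbonic anhydrase of the cell surface, was lower in both experiments, with differences of −0.58 and −0.34 (log2 fold change −0.46, limma's unadjusted p = 0.0273), and P4ha2, a collagen prolyl hydroxylase, with differences of −0.35 and −0.22 (log2 fold change −0.285, limma's unadjusted p = 0.0260). Epas1, which encodes the factor HIF-2 alpha, was higher by 0.38 and 0.30 (log2 fold change 0.34, limma's unadjusted p = 0.00956). Car12, another surface carbonic anhydrase, differed by 1.27 in experiment 1 and 0.45 in experiment 2 (limma's unadjusted p = 0.0818). Hif1a, the factor HIF-1 alpha, had a log2 fold change of −0.04.

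**Figure D4:**
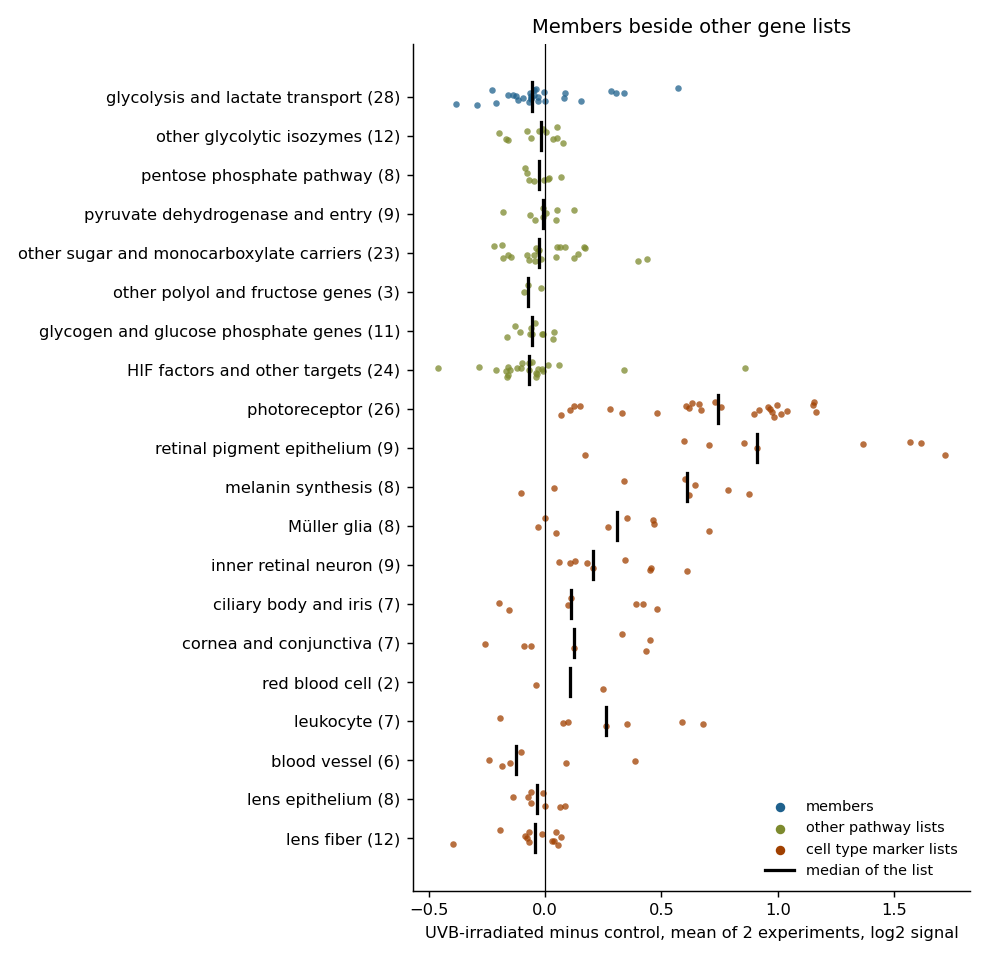
Mean UVB-irradiated minus control log2 signal of each gene in the set of 28, in 7 other pathway lists and in 12 lists of cell type markers, with the number measured in brackets and the median as a black bar. The medians of the pathway lists lie between −0.075 and −0.01, against 0.742 for photoreceptor and 0.91 for pigment epithelium markers.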

How the data were processed

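Expression in lens epithelia was measured on 4 Affymetrix arrays, with 2 of UVB-irradiated and 2 of control eyes. The deposited values are log2 signals of 28944 probe sets, which the authors normalized in Affymetrix Expression Console and rounded. Its version and settings were not given in the sources used here. A human array is named in the methods, although the probe sets carry mouse symbols. Of the probe sets, 21789 had 1 symbol, 1621 several and 5534 none. Genes were named from the platform annotation, and promoters from RefSeq. Experiment numbers came from the sample titles, of which those of experiment 1 carry none. Same-numbered arrays pair, since right and left eyes were of the same mice.

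Differences were fitted over all probe sets with limma 3.58.1 in R 4.3.3, two-sided, with the experiment as a block and Benjamini-Hochberg adjustment, and the fit was tested on simulated data. The number of arrays limits the precision. Every measured gene of the set was named. As a rule, values on each array were given for those with an unadjusted p under 0.05 and the 5 largest differences per direction. Up to 2 genes per direction, more where tied, were named in other lists. Outside this rule, array values were also given for Slc2a1, Slc2a3, both Hk1 probe sets, Tpi1, Ldha, Slc16a8 and the second Ldhb probe set. Bsg, Emb and Hif1a were named outside this rule, after their values had been seen. The genes and lists were chosen with earlier results of these data known. Alternatives were no block, a robust or trended prior, the methods' t-test, other scalings, brighter probe sets, the mean of probe sets, each experiment alone and each array left out.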

Additional observations from a re-analysis of the deposited data

How the results depend on the processing

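Without the replicate block, 18 of the 28 genes had an unadjusted p under 0.05, against 10 with it, and 11 had an adjusted p under 0.05, against 0. An adjusted p under 0.05 was reached by 7 genes in the methods' t-test and by 1 with a robust prior. Over all genes, such calls numbered 3628 without the block (1235 higher and 2393 lower), 1921 in the t-test and 75 with a robust prior, against 0 with the block, where 2625 genes had an unadjusted p under 0.05. Leaving out each array in turn, without a block, gave medians between −0.0525 and −0.05. Since the sums of the experiments are equal, the remaining arrays fix the value of the array left out. Leaving out an array is therefore no independent check. Hk1 changed sign to 0.0975 in the mean of its probe sets and to 0.265 on the probe set of RefSeq mRNAs, an alternative added after seeing the data. Slc2a3 changed sign to 0.015 with equal 75th percentiles. In experiment 2 alone, Aldoc and Pgam1 changed sign to 0.010 each and Slc16a8 to −0.040. Pfkfb3, at 0, took values between −0.02 and 0.02 of either sign, and Slc2a3 and Pdk2 were at 0 in experiment 2. No other gene changed sign. The number of genes lower in both experiments was 16, but 18 with median centring and 12 with equal 75th percentiles. It was 15 with the mean of probe sets, 15 on probe sets of RefSeq mRNAs, and 15 of the 24 genes left with brighter probe sets. All these values rest on 2 arrays per group, and signal over background could not be judged, since no background values were used here.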
